A study of Saccharomyces cerevisiae with 9 samples.

Results

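The genes described here encode the mitochondrial respiratory chain and the ATP synthase of budding yeast, Saccharomyces cerevisiae. They were taken by name and not by any measured value: the alternative NADH dehydrogenases (3 genes), complex II (4), complex III (9), cytochrome c (2), complex IV (10) and ATP synthase (13). Of these 41 genes, 40 had a value among the 6268 features of the arrays, and COX26 of complex IV was not analysed here. All 40 were present on every array of the time courses and entered the test over 6220 features.

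The study asked which transcripts depend on Ypk1 and Ypk2, a pair of related AGC-family protein kinases of which yeast needs at least 1 to grow. Every strain carried deletions of both genes (ypk1Δ ypk2Δ) and a plasmid with a wild-type kinase (WT) or with an analog-sensitive form (AS), whose ATP pocket is engineered to admit an inhibitor that WT kinases exclude. Cells grew in SCD-Leu, and polyA RNA of AS cells in the Cy5 channel was set against that of WT cells in the Cy3 channel after the same inhibitor for the same time. In the Ypk1 series AS Ypk1 was compared with WT Ypk1 in 2,3-DMB-PP1 at 0.5 µM, and in the Ypk2 series AS Ypk2 was compared with WT Ypk2 in 3-MB-PP1 at 1 µM, each with 1 array at 0, 15, 30 and 60 min. A ninth array compared WT Ypk2 with WT Ypk1 cells without inhibitor. Kinase, inhibitor and dose change together between the series and cannot be told apart. The kinases come from plasmids and not from their own chromosomal genes, and the labels do not say whether the times were separate cultures.

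The respiratory chain passes electrons from NADH and succinate to oxygen. Budding yeast has no proton-pumping complex I. Single-protein dehydrogenases on either face of the inner membrane oxidise NADH instead, complex II oxidises succinate, and ubiquinol, complex III, cytochrome c and complex IV carry the electrons on. Complexes III and IV pump the protons that drive the rotary ATP synthase. In cells growing on glucose these genes are held down by glucose repression, and their induction is known to involve the Hap2/3/4/5 activator and loss of the repressor Mig1. Complexes III and IV and the ATP synthase also contain subunits encoded in mitochondrial DNA, which were not analysed here.

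Each value is a log2 ratio after subtraction of the median over the features of its array, so 1 stands for a 2-fold difference. Below, a ratio is the mean of 15, 30 and 60 min with its SD over the 3 arrays, and a gene passed when limma's Benjamini-Hochberg adjusted p over all 6220 features was under 0.05. The test asks whether the later ratio differs from 0, and it keeps any difference between strains or dyes that was there before the inhibitor. Because each condition has 1 array, the p-value measures the spread between times and not between cultures. The genes of the kinases followed the labels on the WT array, with YPK2 at 5.49 and YPK1 at −4.33. In AS over WT cells, YPK1 ran from 0.73 to 2.44 in its own series and YPK2 from 1.06 to 1.53 in its own. YPK2 also gave 0.25, 1.42, 0.52 and 0.95 in the Ypk1 series, where both strains lack the gene, so a value above 0 need not come from a transcript of the named gene. The values are relative, so a change in a transcript and an opposite change in the median transcript cannot be told apart.

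After 2,3-DMB-PP1, 7 of the 40 genes (17.5%) were higher in AS Ypk1 than in WT Ypk1 cells, against 10.9% of all features, and 3 (7.5%) were lower, against 10.5%. The higher genes were SDH4, COR1, QCR2, COX7, ATP1, ATP15 and ATP4, and the lower genes were QCR6, CYC1 and ATP2. After 3-MB-PP1, 5 genes (12.5%) were higher in AS Ypk2 cells, against 6.98% of all features, and 2 (5%) were lower, against 4.73%. Here SDH4, QCR2, COX7, COX8 and ATP4 were higher, and NDE1 and QCR6 were lower. As a group the 40 genes had a median ratio of 0.26 after 2,3-DMB-PP1 and 0.21 after 3-MB-PP1, beside −0.01 and 0.01 for all features. Part of this was there before the inhibitor, as their medians at 0 min were 0.16 and 0.12. The median change of the 40 genes from 0 min was −0.03 and 0.01, beside 0.01 and 0.03 for all features. In both series most of the 40 genes thus did not pass, and the genes that did lay on both sides of 0 within complex III, and after 2,3-DMB-PP1 also within the ATP synthase.

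Averaged over both series, 14 genes passed. The 10 that were higher (25%, against 16.1% of all features) were NDI1, SDH2, SDH4, COR1, QCR2, COX7, COX8, ATP1, ATP15 and ATP4, and the 4 that were lower (10%, against 15.1%) were NDE1, QCR6, CYC1 and ATP2. Fewer calls were made when an array was left out, which also leaves the test with fewer arrays. A lost call thus need not mean that the value rests on that array. The Ypk2 ratio of QCR6 was −0.79, −0.71 and −0.70 without 15, 30 and 60 min, against −0.73, yet its call was lost each time. Other ratios did move, as that of COR1 in the Ypk1 series (1.06, and 0.62 without 30 min). Without 15 min the Ypk1 count fell from 10 to 5, while over all features it fell from 1335 to 1071. Without 15, 30 or 60 min the Ypk2 count fell from 7 to 2, 1 and 2. Over all features it fell as well, from 728 to 403, 53 and 87, so the loss was not particular to the 40 genes. The average count was 8 without the Ypk2 30 min array, and 8 of its 14 calls held whichever array was left out: NDE1, SDH4, QCR2, QCR6, COX7, ATP2, ATP15 and ATP4. With one kinase alone in the fit 3 Ypk1 calls were made, beside 645 of the 6220 features. With array weights 4 Ypk1 and 25 Ypk2 calls were made, beside 1053 and 4157 of the 6220 features. The rise in the Ypk2 count was thus not particular to the 40 genes. The split between higher and lower depends on centring. Without it the median of all features lay at −0.29, −0.28 and −0.27 for the Ypk1, Ypk2 and average ratio. The calls among the 40 genes became 1 higher and 7 lower, 4 and 3, and 5 and 7. Of the calls over all features, 22.5%, 26.9% and 20.7% were then higher.

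**Figure D1:**
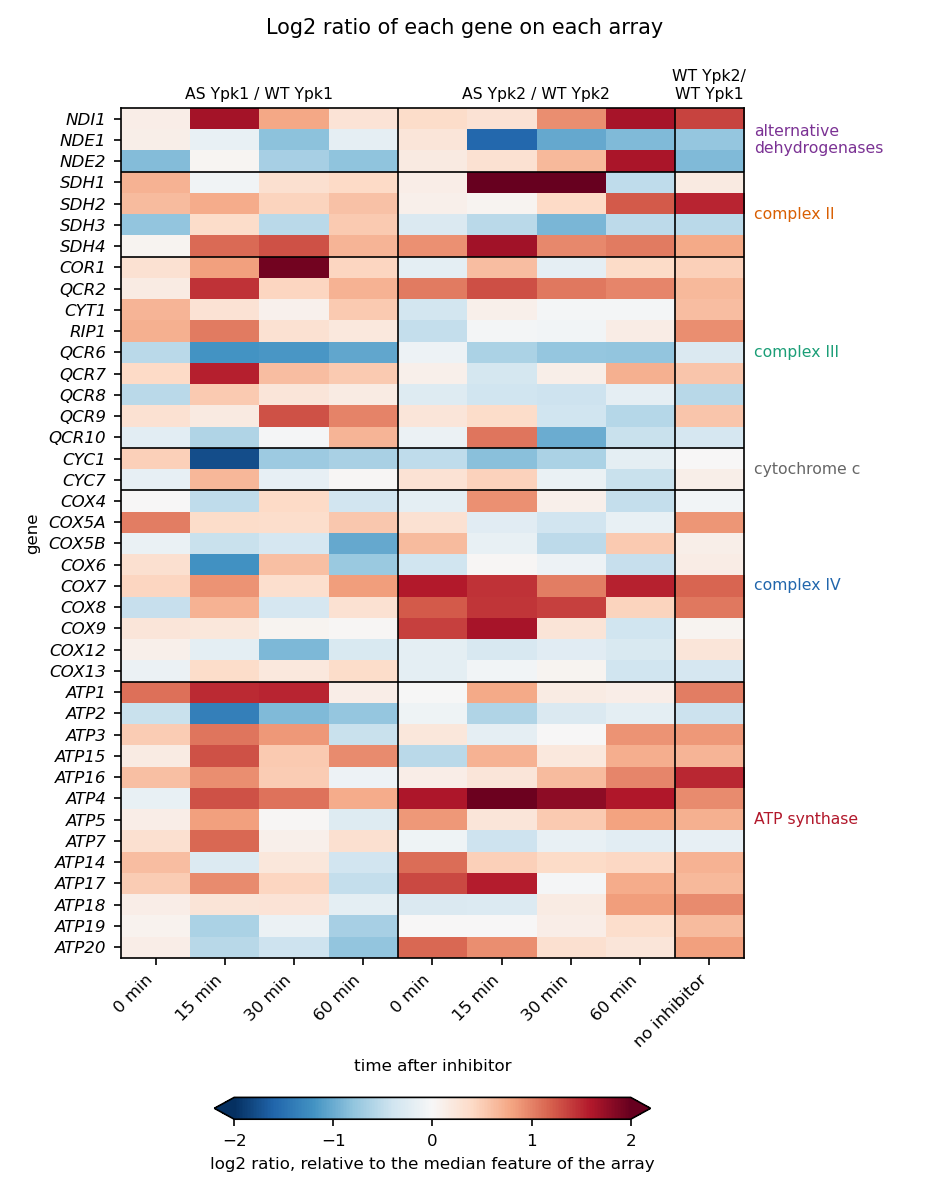
Log2 ratio of the 40 genes (rows, by complex) on the 9 arrays (columns), red for higher and blue for lower in the Cy5 strain, with colours saturating at 2 either way. Rows that keep 1 colour over the later arrays, such as ATP4 and SDH4 (red) and QCR6 and ATP2 (blue), stand beside neighbours of the same complex with mixed colours.

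The NADH dehydrogenases did not move as a group. NDI1 (YML120C) faces the matrix and feeds electrons from mitochondrial NADH to ubiquinone. Its ratio was 0.13, 1.66, 0.78 and 0.27 at 0, 15, 30 and 60 min in the Ypk1 series and 0.36, 0.29, 0.93 and 1.65 in the Ypk2 series. It was thus above 0 on every array, highest at 15 min in the first series and at 60 min in the second. Neither ratio passed alone (0.90 ± 0.71, adjusted p = 0.0784, and 0.96 ± 0.68, adjusted p = 0.0943), but their average of 0.93 did (adjusted p = 0.0163).

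NDE1 (YMR145C) and NDE2 (YDL085W) encode the dehydrogenases that face the intermembrane space and oxidise cytosolic NADH. NDE1 stood at 0.11, −0.15, −0.83 and −0.19 in the Ypk1 series and at 0.24, −1.57, −1.03 and −0.88 in the Ypk2 series. It was 2.23-fold lower in AS Ypk2 cells (−1.16 ± 0.36, adjusted p = 0.0167) and did not pass in the Ypk1 series (−0.39 ± 0.38, adjusted p = 0.257). NDE2 stood at −0.87, 0.03, −0.67 and −0.80 and then at 0.18, 0.30, 0.65 and 1.63, and passed in neither series. In AS Ypk2 cells the paralogs lay apart: the log2 ratio of NDE1 minus that of NDE2 was 0.06 at 0 min and −1.86, −1.68 and −2.50 at the 3 later times. The Ypk2 call of NDE1 was lost without any 1 of the later arrays, with adjusted p from 0.0675 to 0.116.

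Complex II, the succinate dehydrogenase shared with the citrate cycle, held 1 gene that passed in both series. SDH4 (YDR178W), a membrane anchor subunit, stood at 0.05, 1.14, 1.27 and 0.68 in the Ypk1 series and at 0.91, 1.68, 0.95 and 1.04 in the Ypk2 series. It was above 0 on all arrays, and in AS Ypk2 cells it was nearly as high at 0 min as later. The ratios were 1.03 ± 0.31 (adjusted p = 0.0152) and 1.22 ± 0.40 (adjusted p = 0.0126). The first was lost without 30 min (adjusted p = 0.0628) and the second without any 1 later array (0.0602 to 0.0868).

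SDH2 (YLL041C), the iron-sulfur subunit, stood at 0.63, 0.74, 0.45 and 0.59 in the Ypk1 series and at 0.10, 0.06, 0.40 and 1.23 in the Ypk2 series, and passed in the average (0.58, adjusted p = 0.0359), a call that held under 8 of 14 alternatives. It reached its later level already at 0 min in the first series, while in the second it lay near 0 at 0 and 15 min and was highest at 60 min. SDH1, the flavoprotein subunit, gave 2.05 and 2.26 at 15 and 30 min in AS Ypk2 cells, then −0.50 at 60 min, and the ratio of 1.27 ± 1.54 did not pass (adjusted p = 0.118). SDH3, the other membrane anchor, gave 0.37, −0.54 and 0.53 in AS Ypk1 cells and −0.54, −0.92 and −0.52 in AS Ypk2 cells, on the other side of 0 from SDH4 in the latter. The ratios of SDH3 did not pass (0.12, adjusted p = 0.751, and −0.66, adjusted p = 0.125).

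Complex III takes electrons from ubiquinol to cytochrome c. Of its core genes, QCR2 was higher in AS cells in both series and COR1 in the Ypk1 series. QCR6, which encodes an acidic subunit near the cytochrome c site, was lower in both. QCR2 (YPR191W) stood at 0.17, 1.44, 0.44 and 0.69 in the Ypk1 series and at 1.04, 1.29, 1.05 and 0.98 in the Ypk2 series. Its ratio was 0.86 ± 0.53 (adjusted p = 0.0331) in the first and 1.10 ± 0.16 (adjusted p = 0.0214) in the second, where it stood above 1 before the inhibitor as well. COR1 (YBL045C) stood at 0.31, 0.81, 1.93 and 0.43 in the Ypk1 series, with a ratio of 1.06 ± 0.78 (adjusted p = 0.0380), and at −0.19, 0.62, −0.17 and 0.38 in the Ypk2 series (0.28, adjusted p = 0.608). The COR1 ratio rested on the 30 min array, without which it was 0.62 (adjusted p = 0.149). The call was also lost without 15 min (adjusted p = 0.0719), and it held under 4 of 12 alternatives in all. The QCR2 call was lost without 15 or 60 min in the Ypk1 series (adjusted p = 0.110 and 0.0816) and without any 1 later array in the Ypk2 series (0.0878 to 0.137).

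QCR6 (YFR033C) was lower by a similar amount at each later time. It stood at −0.55, −1.19, −1.17 and −1.04 in the Ypk1 series and at −0.10, −0.63, −0.78 and −0.80 in the Ypk2 series, below 0 on every array and further below at each later time than at 0 min. The ratios were −1.13 ± 0.08 (2.19-fold lower, adjusted p = 0.00469) and −0.73 ± 0.09 (1.66-fold lower, adjusted p = 0.0350). The Ypk1 call held without each later array in turn (adjusted p from 0.0142 to 0.0242), and the Ypk2 call did not (0.0857 to 0.245).

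The other complex III genes did not pass. CYT1 encodes cytochrome c1 and RIP1 the Rieske iron-sulfur protein, the electron carriers of the complex. They had ratios of 0.30 and 0.52 in AS Ypk1 cells and of 0.01 and 0.02 in AS Ypk2 cells. The small subunit gene QCR7 stood at 1.56, 0.62 and 0.52 in AS Ypk1 cells and missed the threshold narrowly (0.90 ± 0.57, adjusted p = 0.0505), and QCR9 gave 0.81 ± 0.57 (adjusted p = 0.0670). Counted without a test, 7 of the 9 complex III genes lay above 0 at all 3 later times in the Ypk1 series and 1 of 9, QCR2, in the Ypk2 series. The shares were 45% and 37.5% for the 40 genes and 25.2% and 28.7% for all features. When limma tested the difference between the series, no complex III gene passed (lowest adjusted p = 0.490).

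The genes of cytochrome c, the mobile carrier between complexes III and IV, were also uneven. CYC1 (YJR048W), which encodes the main aerobic isoform, stood at 0.48 at 0 min and at −1.77, −0.73 and −0.66 later in the Ypk1 series. All 3 later arrays thus lay below the 0 min array, and the ratio of −1.05 ± 0.62 passed (2.07-fold lower, adjusted p = 0.0241), though not without 15 min (−0.69, adjusted p = 0.0809). In the Ypk2 series CYC1 stood at −0.51, −0.83, −0.63 and −0.20 (ratio −0.55 ± 0.32, adjusted p = 0.218). CYC7, the isoform used with little oxygen, stayed between −0.17 and 0.67 in the first series and between −0.45 and 0.46 in the second, with ratios of 0.18 (adjusted p = 0.643) and −0.04 (adjusted p = 0.942). Related genes of this kind may share signal on an array spot, which was not tested.

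In complex IV, cytochrome c oxidase, the genes of the small subunits COX7 and COX8 were higher in AS Ypk2 cells. COX7 (YMR256C) stood at 0.43, 0.90, 0.33 and 0.83 in the Ypk1 series and at 1.58, 1.45, 1.03 and 1.54 in the Ypk2 series. Its ratio was 1.34 ± 0.27 in the Ypk2 series (2.53-fold higher, adjusted p = 0.00795) and 0.69 ± 0.31 in the Ypk1 series (adjusted p = 0.0499). COX8 (YLR395C) stood at −0.47, 0.70, −0.34 and 0.30 and then at 1.23, 1.43, 1.36 and 0.45, with ratios of 0.22 ± 0.52 (adjusted p = 0.598) and 1.08 ± 0.55 (adjusted p = 0.0385). Both genes were already more than 2-fold up at 0 min in AS Ypk2 cells and did not lie higher there at all later times. The Ypk1 call of COX7 held under 3 of 12 alternatives and was lost without 15 or 60 min (adjusted p = 0.139 and 0.166). Its Ypk2 call without 30 or 60 min (adjusted p = 0.0656 and 0.0657), and the COX8 call was lost without any 1 later array (0.0638 to 0.244).

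The other complex IV genes measured, COX4, COX5A, COX5B, COX6, COX9, COX12 and COX13, did not pass in either series. COX5A and COX5B encode aerobic and hypoxic isoforms of the same subunit. COX5A stood at 1.02, 0.37, 0.35 and 0.54 in the Ypk1 series and at 0.30, −0.23, −0.38 and −0.15 in the Ypk2 series. COX5B stood at −0.13, −0.45, −0.33 and −1.03 and then at 0.64, −0.15, −0.52 and 0.53. The ratio of the aerobic isoform thus lay above that of the hypoxic one on every Ypk1 array, by 1.15 at 0 min and by 1.02 ± 0.48 later, while in the Ypk2 series the difference was −0.21 ± 0.42. COX9, another small subunit gene, stood in AS Ypk2 cells at 1.37 and 1.65 at 0 and 15 min and at 0.25 and −0.40 at 30 and 60 min.

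In the ATP synthase, 3 genes were higher and 1 lower in AS Ypk1 cells, and 1 was higher in AS Ypk2 cells. ATP4 (YPL078C), which encodes subunit b of the peripheral stalk, stood at −0.15 at 0 min and at 1.28, 1.09 and 0.75 later in the Ypk1 series, and at 1.62, 1.96, 1.80 and 1.60 in the Ypk2 series. Its ratios were 1.04 ± 0.27 (2.05-fold, adjusted p = 0.00923) and 1.78 ± 0.18 (3.45-fold, adjusted p = 0.00273), the latter the highest of the 40 genes in that series. It passed in both series without each later array in turn (adjusted p from 0.0183 to 0.0390). In AS Ypk1 cells every later array was above the 0 min array, while in AS Ypk2 cells the gene stood no lower at 0 than at 60 min.

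In the F1 head, which makes ATP, ATP1 and ATP2 encode the alternating alpha and beta subunits and passed on opposite sides of 0. ATP1 (YBL099W) stood at 1.11, 1.49, 1.53 and 0.13 in the Ypk1 series (ratio 1.05 ± 0.80, adjusted p = 0.0381) and at −0.01, 0.76, 0.16 and 0.13 in the Ypk2 series (0.35, adjusted p = 0.498). ATP2 (YJR121W) stood at −0.44, −1.37, −0.88 and −0.78 (−1.01 ± 0.31, adjusted p = 0.0119) and then at −0.09, −0.60, −0.28 and −0.19 (−0.36 ± 0.22, adjusted p = 0.308). ATP2 was below 0 on every array, and its Ypk1 call held without each later array in turn (adjusted p from 0.0338 to 0.0389). ATP1 lay above its 0 min value at 15 and 30 min and below it at 60 min, and its call was lost without 15 or 30 min (adjusted p = 0.150 and 0.160). ATP15 (YPL271W), the epsilon subunit, stood at 0.17, 1.28, 0.52 and 0.95 in the Ypk1 series (0.91 ± 0.38, adjusted p = 0.0216) and at −0.53, 0.70, 0.21 and 0.72 in the Ypk2 series (0.54 ± 0.29, adjusted p = 0.156). Its later arrays lay above 0 min in both series, and the Ypk1 call was lost without 15 or 60 min (adjusted p = 0.0761 and 0.0819).

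The 9 remaining ATP synthase genes did not pass in either series. They were ATP3 and ATP16 of the central stalk, ATP5, ATP7 and ATP14 of the peripheral stalk, and ATP17, ATP18, ATP19 and ATP20 of the membrane part. Their ratios ranged from −0.58 (ATP20) to 0.52 (ATP7) in the Ypk1 series and from −0.25 (ATP7) to 0.76 (ATP17) in the Ypk2 series. ATP16, the delta subunit, was closest in the average of both series, at 0.53 (adjusted p = 0.0511).

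The complexes were compared by their median on each array, as a description. Complex III had medians of 0.53, 0.31 and 0.52 at 15, 30 and 60 min in the Ypk1 series and of 0.10, −0.17 and −0.03 in the Ypk2 series. Complex II stood at 0.56, 0.39 and 0.56 and then at 0.87, 0.68 and 0.27. Complex IV stayed near the median feature, at 0.22, 0.21 and 0.02 and then at 0.02, 0.05 and −0.31. The alternative dehydrogenases stood at 0.03, −0.67 and −0.19 and then at 0.29, 0.65 and 1.63. The 2 cytochrome c genes had medians of −0.55, −0.45 and −0.31 and then of −0.18, −0.38 and −0.32. Part of this was there at 0 min, where complex III stood at 0.31 and −0.12 in the Ypk1 and Ypk2 series. Complex II stood there at 0.34 and 0.12, complex IV at 0.11 and 0.30, the alternative dehydrogenases at 0.11 and 0.24, and cytochrome c at 0.16 and −0.11. No complex had the highest median at every later time of the Ypk2 series, and genes within a complex lay far apart, as with the ratios of −0.66 (SDH3) and 1.27 (SDH1) in complex II there.

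The ATP synthase was the complex whose median moved most over time in the Ypk1 series. It stood at 0.17 at 0 min, 0.94 at 15 min, 0.27 at 30 min and −0.26 at 60 min. Of its 13 genes, 12 (92.3%) were lower at 60 than at 15 min, with ATP2 the exception, and the median difference was −0.53. All 3 alternative dehydrogenase genes were lower as well, with a median difference of −0.83. So were 28 of the 40 genes (70%), with a median difference of −0.28. The share was 55.6% in complexes III and IV and 50% in complex II and cytochrome c. Among all features 46.4% were lower at 60 than at 15 min, with a median difference of 0.06, and among the 138 cytosolic ribosomal protein genes 109 (79.0%) were, with a median difference of −1.01. In the Ypk2 series the ATP synthase median was 0.13, 0.25, 0.16 and 0.72, and 5 of 13 genes were lower at 60 than at 15 min. Each time is 1 array, so a difference between times has no error, and the part that the single arrays play in it was not tested.

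**Figure D2:**
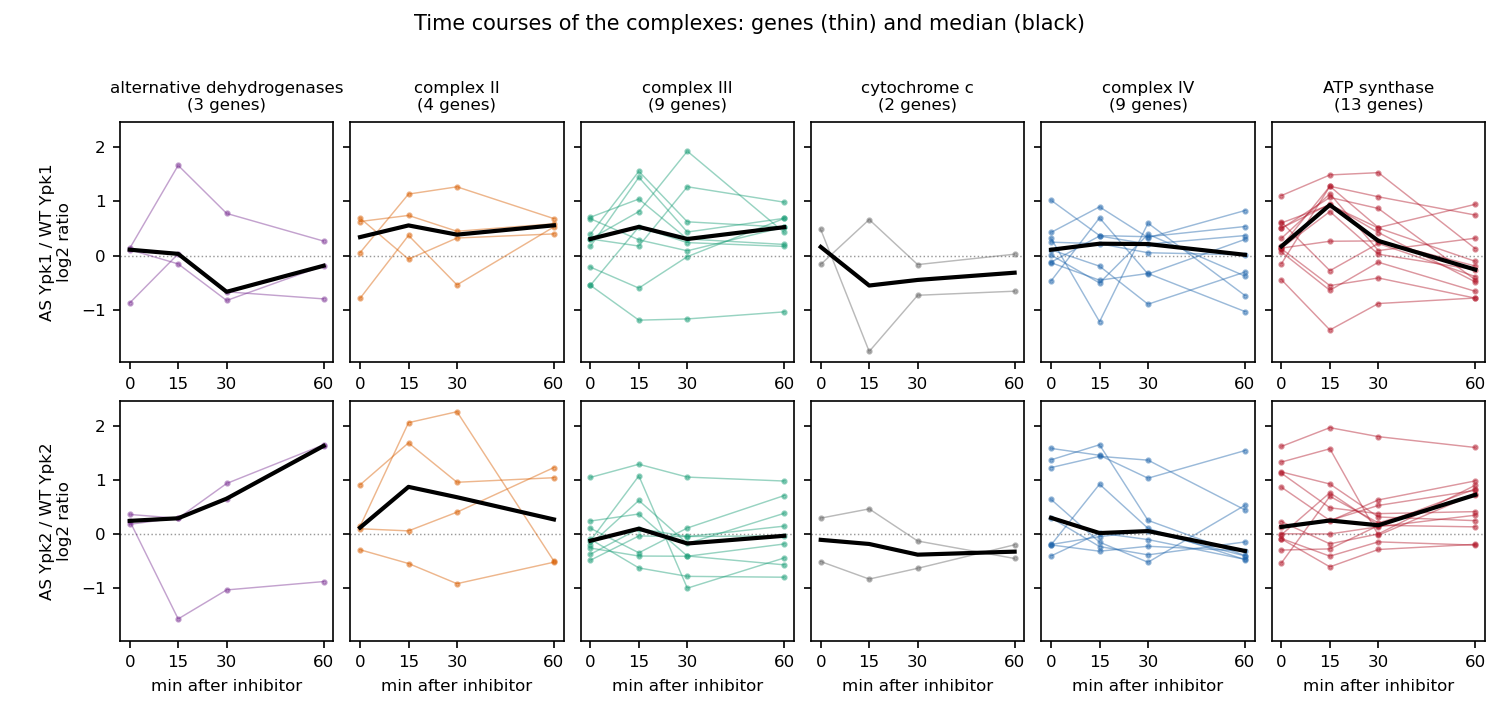
Log2 ratio of AS over WT cells (vertical axis) against min after inhibitor (horizontal axis) for the genes of each complex (thin lines) and their median (black), with the Ypk1 series above and the Ypk2 series below. The ATP synthase median peaks at 0.94 at 15 min in the Ypk1 series and ends at −0.26, while in the Ypk2 series it ends at 0.72.

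Of the 10 genes called in the Ypk1 series and the 7 called in the Ypk2 series, 5 were shared: SDH4, QCR2, QCR6, COX7 and ATP4, each with the same direction in both. That is 50% of the Ypk1 calls and 71.4% of the Ypk2 calls, and over all features the 516 shared calls made up 38.7% and 70.9%. Across the 40 genes the ratios of the series correlated with r = 0.518, and across all features with r = 0.694, where the points of a series share its arrays and genes are not independent replicates. When the difference between the series was tested, 0 of the 40 genes passed (0% of all features). At an unadjusted p under 0.05 were 8 of the 40 genes and 602 of the 6220 features. The largest differences were −1.34 ± 0.41 (SE) for NDE2, −1.08 ± 0.30 for ATP20 and −1.05 ± 0.66 for SDH1, all lower in the Ypk1 series, and 1.01 ± 0.39 for QCR9, higher in it. Their adjusted p was 0.440, 0.411, 0.630 and 0.490. A call in 1 series alone, such as NDE1 or CYC1, is thus not shown to differ between them: the difference was 0.77 ± 0.33 for NDE1 and −0.50 ± 0.37 for CYC1.

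**Figure D3:**
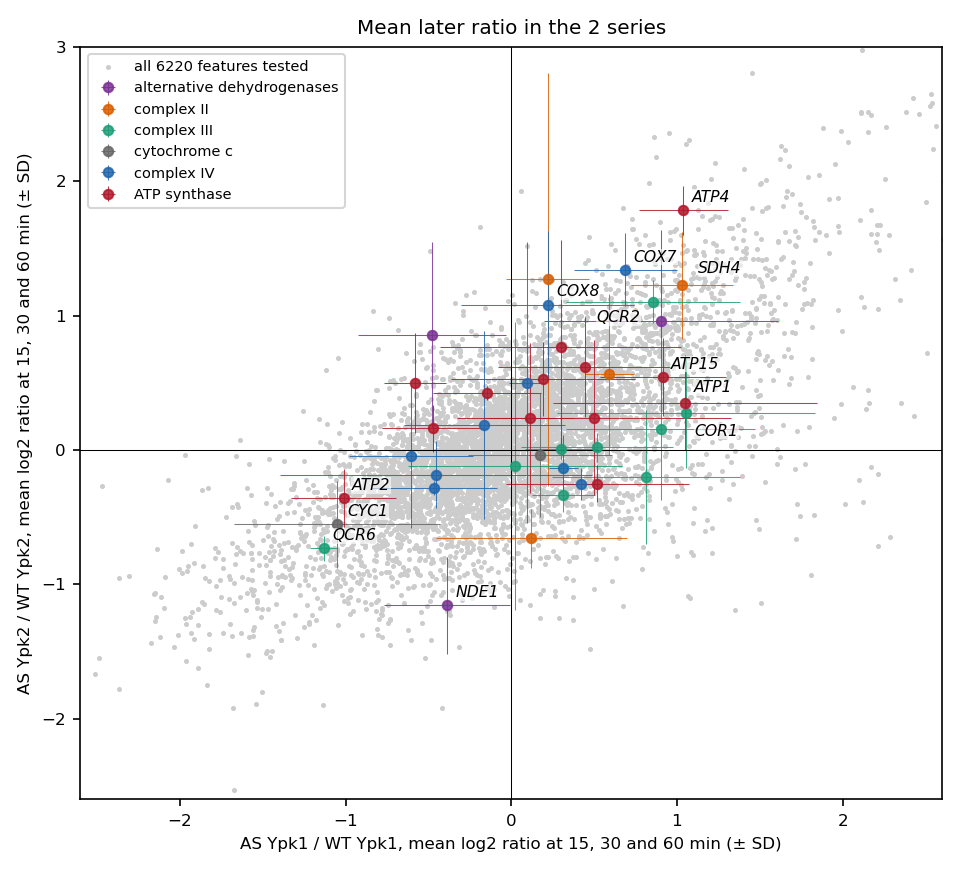
Mean log2 ratio after inhibitor in the Ypk1 series (horizontal axis) and the Ypk2 series (vertical axis), with bars for the SD over 3 later times, for the 40 genes coloured by complex over all 6220 features in grey (21 features lie outside the axes). Genes that passed in either series are named: ATP4, SDH4, QCR2 and COX7 lie to the upper right, QCR6 to the lower left.

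No change from 0 min passed for these genes. With the single 0 min array subtracted, 0 of the 40 genes passed in the Ypk1 series (0.0482% of all features, 3 in number) and 0 in the Ypk2 series (0% of all features). At an unadjusted p under 0.05 the Ypk1 series held 2 of the 40 genes, beside 703 of the 6220 features. They were ATP4 with a change of 1.19 and CYC1 with −1.53. The Ypk2 series also held 2 of the 40, ATP15 with 1.08 and NDE1 with −1.40, beside 321 of the 6220 features. In the Ypk1 series 12 genes (30%) lay above their 0 min value at every later time and 13 (32.5%) below it, beside 28.0% and 27.0% of all features. In the Ypk2 series the numbers were 9 (22.5%) and 12 (30%), beside 27.8% and 28.7%.

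The 0 min arrays themselves differed. In AS Ypk2 cells 8 of the 40 genes (20%) were at least 2-fold higher than in WT Ypk2 cells before the inhibitor had acted, against 4.74% of all features, and 0 were 2-fold lower (0.0957% of all features). They were ATP4 (1.62), COX7 (1.58), COX9 (1.37), ATP17 (1.33), COX8 (1.23), ATP20 (1.15), ATP14 (1.12) and QCR2 (1.04). All belong to complexes III and IV and the ATP synthase, which hold 9, 9 and 13 of the 40 genes and thus most of them. In AS Ypk1 cells 2 genes (5%), ATP1 (1.11) and COX5A (1.02), were 2-fold higher, against 4.39% of all features, and 0 were 2-fold lower (1.6% of all features). Cytosolic ribosomal protein genes also stood high on these arrays, with medians of 0.67 and 0.62. As AS cells were labelled with Cy5 on every one of these single arrays, strain and dye cannot be told apart. Without centring the Ypk2 count was 4.

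Signs over several arrays give the same mixed picture. Above 0 on all 3 later arrays were 18 genes (45%) in the Ypk1 series, against 25.2% of all features, and 15 (37.5%) in the Ypk2 series, against 28.7%. On all 6 later arrays 8 genes (20%) were above 0, against 14.9%. NDI1, SDH2, SDH4, QCR2 and COX7 (12.5% of the 40) were above 0 on all 9 arrays, the WT array included, as were 6.06% of all features. QCR6 and ATP2 (5% of the 40) were below 0 on all 9, as were 5.23% of all features.

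The WT array asked whether cells living on Ypk2 differ from cells living on Ypk1 without any inhibitor. There the 40 genes had their highest median of any array, 0.59 in WT Ypk2 over WT Ypk1 cells, with 30 of 40 (75%) above 0. At least 2-fold higher were 6 genes (15%), against 2.74% of all features, and 0 were 2-fold lower, against 2.35%. They were SDH2 (1.53), ATP16 (1.51), NDI1 (1.36), COX7 (1.16), COX8 (1.05) and ATP1 (1.03). The 5th and 95th percentiles of all features on this array were −0.82 and 0.82.

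The complexes were unlike on the WT array. The ATP synthase had the highest median, 0.71, with 11 of 13 genes above 0 and ATP2 (−0.43) and ATP7 (−0.17) below. Complex III had a median of 0.55 with 6 of 9 genes above 0, the exceptions being QCR8 (−0.55), QCR10 (−0.33) and QCR6 (−0.29). Complex IV had 0.14, and the cytochrome c genes CYC1 (0.00) and CYC7 (0.12) lay at the median feature. The external NADH dehydrogenase genes NDE1 (−0.77) and NDE2 (−0.88) lay on the other side of 0 from NDI1. Without centring the median of the 40 genes was 0.45 and 4 genes were 2-fold higher. With 1 array there is no error and no test, and dye and strain cannot be told apart.

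**Figure D4:**
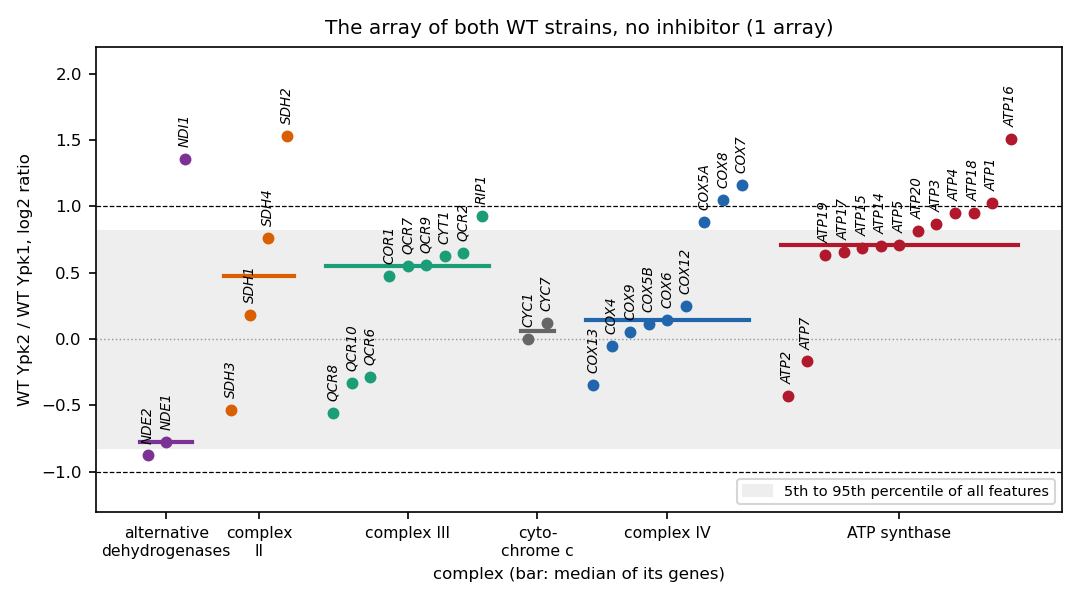
Log2 ratio of WT Ypk2 over WT Ypk1 cells without inhibitor (vertical axis) for each of the 40 genes, grouped by complex (horizontal axis), from 1 array, with bars for the median of a complex, dashed lines at 2-fold and grey for the 5th to 95th percentile of all features. SDH2, ATP16, NDI1, COX7, COX8 and ATP1 lie above the upper dashed line, and 11 of 13 ATP synthase genes lie above 0.

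Genes around the respiratory chain were counted by lists written from general knowledge. Their counts are to be read against the shares of all features given above, 10.9% higher and 10.5% lower for Ypk1, 6.98% and 4.73% for Ypk2, and 16.1% and 15.1% in the average. Of 10 citrate cycle genes, which supply the chain with NADH and succinate, 5 were higher in the Ypk1 series, 2 in the Ypk2 series and 7 in the average, and 0 were lower. IDH1, a subunit of isocitrate dehydrogenase, stood at 0.93, 0.66 and 1.01 in AS Ypk1 cells (ratio 0.87 ± 0.19, adjusted p = 0.0201) and at 1.39, 1.05 and 1.70 in AS Ypk2 cells (1.38 ± 0.32, adjusted p = 0.00674). FUM1, fumarase, had 1.09 ± 0.24 (adjusted p = 0.00683) and 0.94 ± 0.15 (adjusted p = 0.0198). The list's median ratio was 0.73 and 0.59, against 0.26 and 0.21 for the 40 respiratory genes.

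Among 15 regulators of respiration genes, 2 were higher and 2 lower in the average, no more than the 16.1% and 15.1% of all features. CAT8, an activator of genes used on non-fermentable carbon, stood at 1.89, 1.42 and 1.99 in AS Ypk1 cells (1.77 ± 0.31, adjusted p = 0.00180) and at 1.00, 1.22 and 1.38 in AS Ypk2 cells (1.20 ± 0.19, adjusted p = 0.00994), from 0.02 and 0.11 at 0 min. MIG1, the glucose repressor, was lower at −1.67, −1.44 and −0.73 (−1.28 ± 0.49, adjusted p = 0.00666) and at −1.14, −0.84 and −1.04 (−1.01 ± 0.15, adjusted p = 0.0264). HAP3, a subunit of the Hap complex, was lower in the average (−0.63, adjusted p = 0.0236), and REG1, a phosphatase subunit of glucose repression, was higher (0.53, adjusted p = 0.0236).

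Assembly factors were called both ways, beside 16.1% of all features higher and 15.1% lower in the average. For complex IV, 2 of 22 were higher in the average (COX19 and COX20) and 2 lower (PET117 and PET191). For complex III, 0 of 12 were higher and 2 lower (CBP4 and CBP6). For the ATP synthase, 3 of 17 were higher and 1 lower. The former include STF1 and STF2, which act with the ATPase inhibitor, at 0.84 (adjusted p = 0.00356) and 1.07 (adjusted p = 0.00397). For complex II, 1 of 3 was higher, SDH8 (0.87, adjusted p = 0.0150).

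Of 8 heme synthesis genes, 2 were higher in the average and 0 lower, beside 16.1% and 15.1% of all features. HEM15, ferrochelatase, which inserts the iron into the heme of complexes III and IV, stood at 1.23, 0.87 and 1.07 in AS Ypk1 cells (1.06 ± 0.18, adjusted p = 0.0136) and at 1.76, 2.40 and 2.68 in AS Ypk2 cells (2.28 ± 0.47, adjusted p = 0.00191). Of 11 carriers and electron entry genes, 2 were higher and 3 lower in the average, beside the same shares. POR1, the outer membrane channel, averaged 1.20 (adjusted p = 0.000832) and CYB2, which passes electrons from lactate to cytochrome c, 0.92 (adjusted p = 0.00182). PET9, the main ADP/ATP carrier, averaged −0.94 (adjusted p = 0.0115). Of 7 genes used with little oxygen, among them COX5B and CYC7, 0 passed in either series or the average.

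Broader groups place these values. Of 16 general stress genes activated by Msn2 and Msn4, 11 were higher after 2,3-DMB-PP1 and 10 after 3-MB-PP1, beside 10.9% and 6.98% of all features, with median ratios of 1.19 and 1.36, and their median on the WT array was 0.90. Of 76 mitochondrial ribosomal protein genes, 2 were higher and 13 lower in the average, beside 16.1% and 15.1% of all features, with median ratios of −0.17 and −0.15. Cytosolic ribosomal protein genes had median ratios of 0.17 and −0.29, with 15 of 138 higher and 28 lower in the average, beside the same shares. The respiratory genes lay between the stress genes and the ribosomal proteins of the mitochondrion on each later array.

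**Figure D5:**
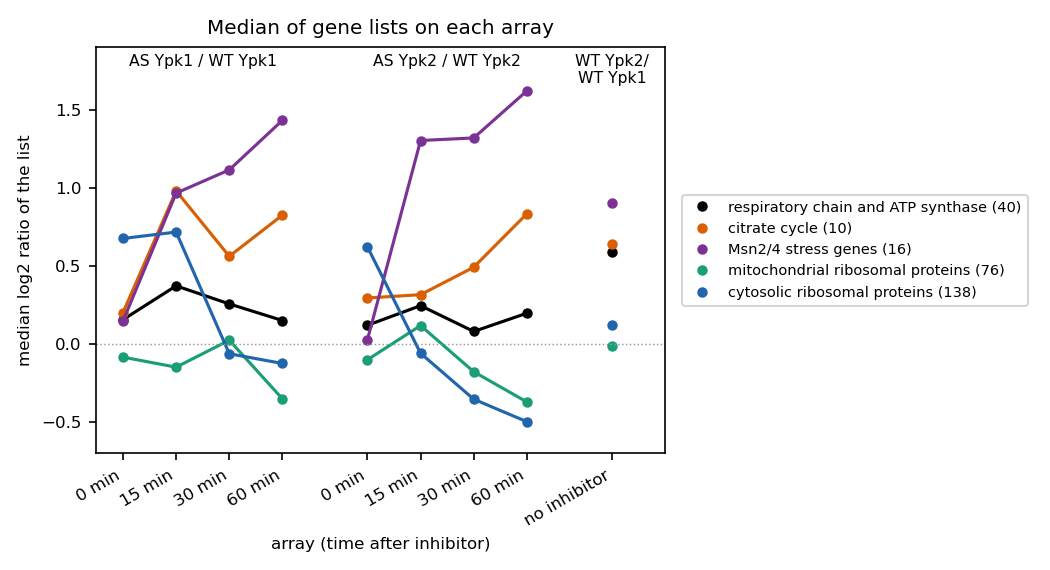
Median log2 ratio (vertical axis) of 5 gene lists on each array (horizontal axis), with the number of genes in brackets and lines joining the times of a series. The respiratory chain and ATP synthase genes (black) stay between 0.08 and 0.37 over the time courses and reach 0.59 on the WT array, while the Msn2/4 genes end at 1.43 and 1.62.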

How the data were processed

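PolyA RNA was compared on 9 dual-channel arrays. The authors deposited log2 ratios of Cy5 over Cy3; the scale was read from the values: as log2, 100% correspond to a ratio on a grid of 0.001, against 30.8% as log10. Scanner, array design and normalization are not given in the sources used here. Deposited array medians ran from −0.52 to 0.23, so the ratios had not been centred on the median. The direction was read from the kinase genes on the WT array and is assumed for the other 8. With no intensities, background and dye bias could not be checked, and the number of arrays limits the precision.

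Of 6268 features, 5777 were named through their locus tags in R64, whose coordinates were not used, and 491 kept their deposited name. Arrays were centred on their medians. limma 3.58.1 in R 4.3.3 was fitted to the 6220 features measured on the 8 arrays with AS cells (48 left out), with separate means per kinase for 0 min and for 15 to 60 min. There were 4 residual degrees of freedom, and single 0 min arrays are assumed to vary like the others. Contrasts were each later mean against 0, their average and difference, and later minus 0 min, with Benjamini-Hochberg adjustment over 6220 features at 0.05. Single arrays were read at 2-fold, with no test. The fit was checked on simulated data.

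The genes, the lists and the tests were chosen with earlier results of these data known. Every gene of the complexes could be named, and up to 4 of each other list with the largest average ratio. Alternatives were no centring, scaling, quantile normalization, another filter on missing values, named features only, array weights, a robust prior, each kinase alone, a term for time and leaving out each later array.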

Additional observations from a re-analysis of the deposited data

Results flagged for a closer look

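For 5 genes all 3 later arrays lay above 0 in one series and below 0 in the other. The same pattern was not counted over all features, so whether 5 genes is more than usual was not tested. When the difference between the series (Ypk1 ratio minus Ypk2 ratio) was tested with limma, none of these 5 passed over all features. The difference was 0.65 for QCR8 (adjusted p = 0.508), 0.67 for COX5A (adjusted p = 0.492) and 0.77 for ATP7 (adjusted p = 0.516), each above 0 in AS Ypk1 and below 0 in AS Ypk2 cells. It was −0.63 for ATP19 (adjusted p = 0.516) and −1.08 for ATP20 (adjusted p = 0.411), which ran the other way, with ATP19 near 0 in AS Ypk2 cells at 15 min.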

How the results depend on the processing

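No paired analysis was possible because the labels carry no replicate numbers and each condition has 1 array. The Ypk1 count of 10 was 6 with arrays scaled to one spread, 4 with array weights and 3 with that kinase alone in the fit, and 5 to 8 when 1 later array was left out. With scaling, array weights and that kinase alone, the Ypk1 count over all features was 1003, 1053 and 645, against 1335. The Ypk2 count of 7 was 25 with array weights, where 4157 of all features passed and the weights did not fully converge, and 1 to 2 when 1 later array was left out. The average count of 14 was 8 to 13 when 1 array was left out. Counts for the difference and for the changes from 0 min stayed at 0 under every alternative run. Without centring, medians of the Ypk1 and Ypk2 ratio were −0.0226 and −0.0808 for the 40 genes, 0.24 and −0.29 for complex III, −0.19 and −0.34 for complex IV and −0.72 and −0.59 for cytochrome c, and 0.13 for complex II in the Ypk1 series. With scaled arrays the complex III median was 0.38 in the Ypk1 series. Leaving out 1 later array moved the Ypk1 median of complex II between 0.36 and 0.56 and that of complex III between 0.33 and 0.68. It moved the Ypk2 median of the 40 genes between 0.12 and 0.30 and that of complex IV between −0.17 and 0.19. For single genes, 2906 of 3040 alternatives kept the call or its absence, 90 lost a call and 44 gained one. Direction was compared only where the gene passed in either setting, and there 0 turned. Genes that passed in neither could change sign, as ATP14 in the average did (0.14, and −0.15 without centring). In the average, ATP2, ATP4, COX7, NDE1, QCR2, QCR6 and SDH4 held under every alternative run. Alternatives for single arrays were chosen after seeing the data. At 1.5-fold, 8 genes were higher on the Ypk1 0 min array (712 of all features) and 20 on the WT array (641 of all features). Without centring 4 were 2-fold higher on the Ypk2 0 min array (153 of all features) and the WT median was 0.45. The planned promoter motif counts were not run. Signal over background has no measure here.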
